A study of Mus musculus with 12 samples.

Results

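The genes described here are the annexins that were listed by symbol for this report, Anxa1, Anxa2, Anxa3, Anxa4, Anxa5, Anxa6, Anxa7, Anxa8 and Anxa11, which are 9 of the 5545 genes with complete rows in the deposited RNASeq table. Each was found once in the table. The list is one of gene family and symbol, made with earlier results of these data known. Annexins are proteins that bind acidic phospholipids of cell membranes when calcium rises, and they take part in exocytosis, endocytosis, the linking of membranes to the actin cytoskeleton and the repair of torn plasma membrane. Anxa1 is also an anti-inflammatory mediator that is induced by glucocorticoids and signals through formyl peptide receptors. In cytotoxic lymphocytes, calcium entry at the contact with a target cell triggers the release of granules.

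NK cells and ILC1, the liver-resident innate lymphoid cells that resemble NK cells, were sorted from the livers of C57BL/6 mice. From weaning, lean mice received a standard diet, named RM1 expanded diet in the labels, and obese mice an obesogenic one, 824018 - 45% AFE fat, with condensed milk as a supplement, in both cases for 12 weeks. NK cells were sorted as lineage-negative NK1.1+ CD49a- CD49b+ and ILC1 as lineage-negative NK1.1+ CD49a+ CD49b-, and both came from each of 3 lean and 3 obese mice, which gave 12 libraries in 4 groups of 3, each from 2 ng of total RNA. The mice are numbered 25, 26 and 27 within each diet, and a number shared by a lean and an obese mouse does not mean the same animal. Values are normalized counts, which are the authors' read counts of a gene divided by a factor for each library, and they are given in the order of mice 25, 26 and 27.

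Over the genes of the table the libraries held between 1666637 and 2826766 counts, which is not their full depth because the genes analysed here end at Cyp26b1 in the alphabet. Cma1, the gene taken as an NK cell marker, ran from 5096 to 9490 normalized counts in NK and from 36 to 810 in ILC1 libraries, and the sum of the ILC1 genes Cxcr6, Cd200r1 and Cxcr3 from 325 to 1904 in NK and from 9522 to 34461 in ILC1 libraries. These genes differed between the libraries in the direction of the labels, but they are few, they were chosen with earlier results of these data known, and Cma1 is better known from mast cells. The ILC1 library of obese mouse 26 stood apart. Its 9 hepatocyte markers summed to 316230 normalized counts, against 287 and 1240 in the other obese and 189 to 246 in the lean ILC1 libraries, and its ILC1 markers to 9522, the lowest of the ILC1 libraries. The fewest genes were detected in the NK library of lean mouse 27 (1948) and in the ILC1 library of obese mouse 25 (2014), and the most in the ILC1 library of obese mouse 26 (3292).

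Annexin transcripts made up a larger part of the counts in NK cells than in ILC1. The 9 genes together took 1.92%, 1.88% and 2.11% of the counts in lean NK cells and 1.83%, 1.85% and 1.86% in obese NK cells. In lean ILC1 the shares were 0.893%, 0.846% and 0.868%, and in obese ILC1 1.08%, 0.90% and 1.10%. Every NK library was above every ILC1 library, and every obese ILC1 library was above the lean ILC1 libraries, that of obese mouse 26 only just. In that library 5691 of the annexin counts came from Anxa3, Anxa4 and Anxa5, and without these 3 genes its share was 0.590%, below the 0.765% to 0.799% of the lean ILC1 libraries, while those of obese mice 25 and 27 were 1.06% and 1.01%. A share depends on all counts of a library, and the hepatocyte gene Alb alone took 87894 of the 1832842 there. By normalized counts, Anxa1 (4812), Anxa2 (8386), Anxa7 (1251) and Anxa8 (16) of that library were above every lean ILC1 library. Anxa6 (4158) was below all of them and Anxa11 (333) within their range. Because these are bulk libraries, fewer cells that carry a transcript and less of it per cell cannot be told apart, here or in any value that follows.

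**Figure D1:**
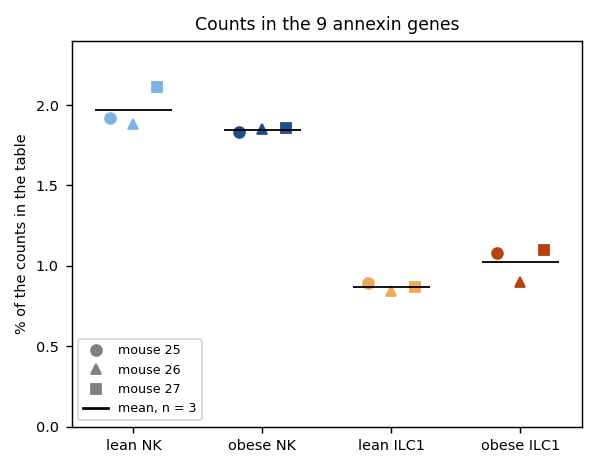
Share of the counts in the table that fell in the 9 annexin genes (y axis, %) in each of the 4 groups (x axis), with 1 symbol per library, its shape giving the mouse number, and a line at the mean of 3 libraries. NK libraries lie between 1.83% and 2.11% and ILC1 libraries between 0.846% and 1.10%.

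Per kilobase of exon (all exons of the gene in GENCODE M21 merged, so that unequal transcript use can shift the order), Anxa2 had the highest mean of the annexins in all 4 groups. Anxa2, which forms a complex with S100A10 and binds plasminogen at the cell surface, had 5399 normalized counts per kilobase in lean NK cells (range 4938 to 6208). It was followed by Anxa6, the family member with a duplicated annexin core, at 3230 (2866 to 3873) and by Anxa1 at 2022 (1632 to 2379). Anxa5, whose protein binds phosphatidylserine and is used as a stain of dying cells, came next at 771 (657 to 995), and then Anxa7 at 145 (106 to 218). None of these neighbours overlapped. Anxa8 (68.1 to 93.6), Anxa4 (33.8 to 82.9) and Anxa11 (31.9 to 44) were the least abundant of those detected in lean NK cells, and each overlapped with its neighbour.

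In lean ILC1 the same 4 genes were the most abundant per kilobase, but the levels lay closer together. Anxa2 had 1755 normalized counts per kilobase (range 1674 to 1875) and Anxa6 1636 (1611 to 1654), which did not overlap. Anxa1 at 808 (766 to 842) and Anxa5 at 783 (738 to 865) overlapped with each other. Anxa7 was at 137 (130 to 147), and Anxa11 (34.3 to 89) and Anxa4 (41.1 to 44.8) overlapped. No Anxa8 read was counted in lean ILC1. In obese ILC1, Anxa6 (1419 to 2438), Anxa5 (271 to 4002) and Anxa1 (1315 to 1653) overlapped with each other, and the first 2 of these also with Anxa2 (2248 to 2308). There Anxa6 in mouse 25 and Anxa5 in mouse 26 were above every value of Anxa2.

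**Figure D2:**
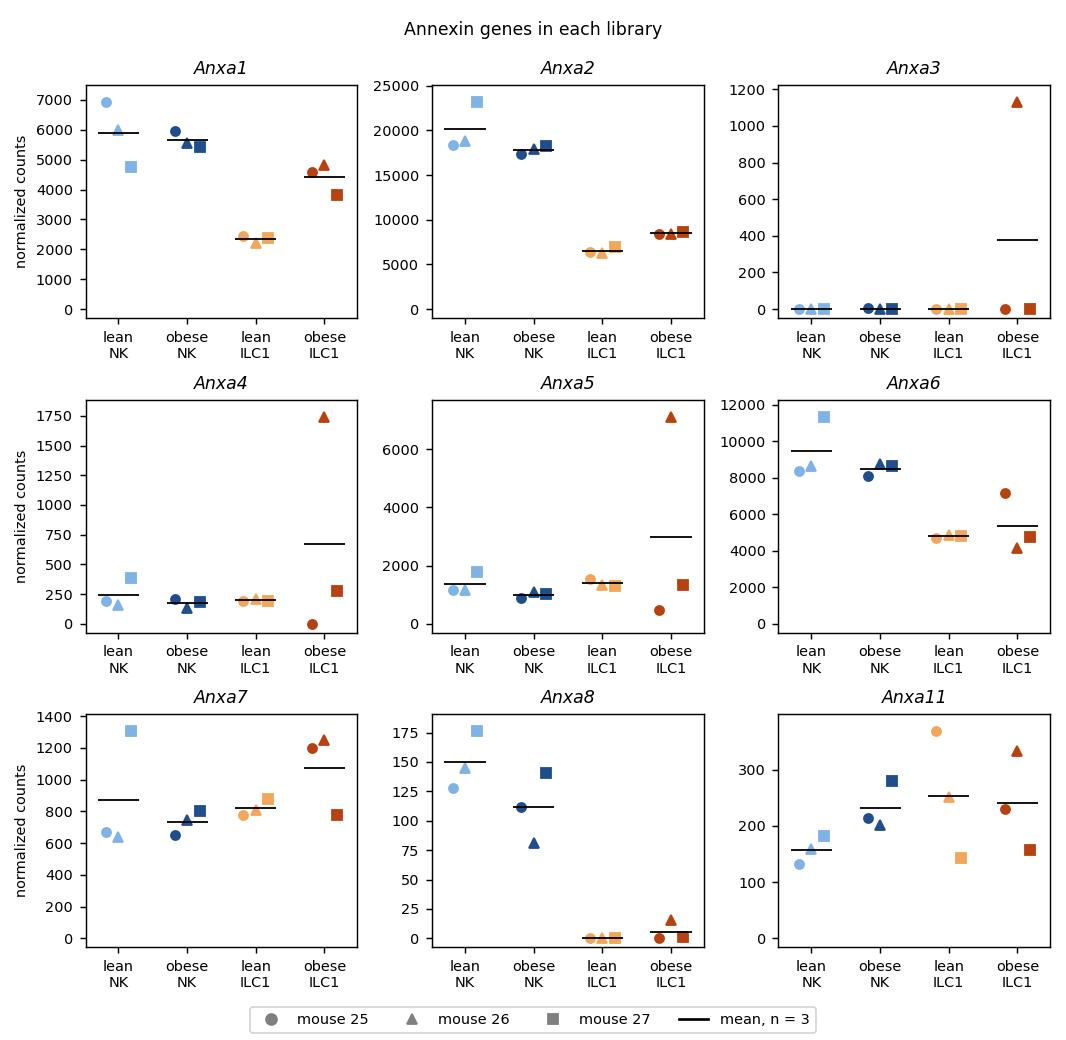
Normalized counts (y axis, linear, a scale of its own for each gene) of the 9 annexin genes in the 12 libraries, by group (x axis), with 1 symbol per library and a line at the mean of 3. Anxa2 lies between 17337 and 23163 in NK cells and between 6245 and 8610 in ILC1, while Anxa3, Anxa4 and Anxa5 show 1 high symbol, the ILC1 library of obese mouse 26.

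ILC1 were compared with NK cells to ask which annexins differ between the 2 cell types. Anxa2 and Anxa8 were lower in ILC1 than in NK cells, Anxa1 and Anxa6 had lower values that did not reach a fold of 2, and no annexin was called higher. Calls come from edgeR's quasi-likelihood test with all 12 libraries in one model and needed a fold over 2 together with a p under 0.05 after Benjamini-Hochberg adjustment over the 2606 genes that passed the filter on low counts. Of the 9 annexins 8 were tested, and Anxa3 was not. In the mean of both diets, 2 were called lower, where 1.19% of all tested genes were called lower, and 0 were called higher, where 3.15% of all tested genes were. Among the annexins 0 were higher at an unadjusted p under 0.05, and DESeq2 also called 2. The median log2 fold change of the tested annexins was -0.32, and that of all tested genes 0.04, or -0.56 and -0.08 without the ILC1 library of obese mouse 26.

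Anxa2 (chromosome 9 of GRCm38, 69453620 to 69491795, plus strand) had 18423, 18843 and 23163 normalized counts in lean NK cells and 17337, 17941 and 18313 in obese NK cells. It had 6402, 6245 and 6996 in lean ILC1 and 8422, 8386 and 8610 in obese ILC1. Every NK library was thus above every ILC1 library, as for 2.65% of all tested genes with ILC1 below NK cells, and the value was lower in ILC1 than in the NK cells of the same mouse in 6 of 6 mice. The fold between the cell types was 2.58 (log2 fold change -1.37, standard error 0.0871, edgeR's quasi-likelihood test, adjusted p = 1.95e-05). With the mouse as a block, so that each ILC1 library is compared with the NK library of the same mouse, the adjusted p was 0.00506 and Anxa2 was the 1 annexin called.

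Anxa8 (chromosome 14, 34085981 to 34100571, plus strand), a phospholipid-binding annexin with anticoagulant activity in vitro, was found in every NK library and was at or near 0 reads in ILC1. Lean NK cells had 128, 145 and 176 normalized counts and obese NK cells 112, 81 and 141. In lean ILC1 no read was counted in the 3 libraries, and in obese ILC1 there were 0, 16 and 1 normalized counts, from 0, 9 and 2 reads. The groups did not overlap, and the 16 came from the library of obese mouse 26. The log2 fold change was -7.38 (standard error 1.20, edgeR's quasi-likelihood test, adjusted p = 0.00731), a fitted value that depends on how counts of 0 are treated and gives no bound. Against a floor of 3 counts per library, Anxa8 was at least 48.2-fold lower in lean ILC1 than in lean NK cells. With the mouse as a block the adjusted p was 0.124 and the call was lost.

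Anxa6 (chromosome 11, 54979108 to 55033445, minus strand), which is linked to membrane repair and cholesterol transport, had 8396, 8651 and 11347 normalized counts in lean NK cells and 8090, 8759 and 8628 in obese NK cells. It had 4719, 4846 and 4814 in lean ILC1 and 7142, 4158 and 4753 in obese ILC1. The cell types did not overlap, and ILC1 were below NK cells in 6 of 6 mice, least in obese mouse 25. The fold was 1.79 (log2 fold change -0.84, standard error 0.145, edgeR's quasi-likelihood test, adjusted p = 0.00610), so that Anxa6 passed the adjusted p but not the fold of 2. With the mouse as a block the adjusted p was 0.0501.

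Anxa1 (chromosome 19, 20373428 to 20390944, minus strand) had 6925, 5985 and 4751 normalized counts in lean NK cells and 5964, 5549 and 5436 in obese NK cells. It had 2450, 2229 and 2374 in lean ILC1 and 4599, 4812 and 3827 in obese ILC1. The lowest NK library (lean mouse 27) was below the highest ILC1 library (obese mouse 26), although ILC1 were below the NK cells of the same mouse in 6 of 6 mice. The fold was 1.82 (log2 fold change -0.86, standard error 0.115, edgeR's quasi-likelihood test, adjusted p = 0.00126), again under the fold of 2.

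The other tested annexins were not called in this comparison. Anxa7 (chromosome 14, 20455260 to 20480133, minus strand), also known as synexin and linked to granule fusion, had 636 to 1304 normalized counts in NK cells and 776 to 1251 in ILC1, a difference of 0.21 on the log2 scale (standard error 0.209). For Anxa11 (chromosome 14, 25842156 to 25886804, plus strand), which tethers RNA granules to lysosomes, the counts were 132 to 280 in NK cells and 142 to 368 in ILC1, a difference of 0.34 (0.335). Both had overlapping groups and were higher in ILC1 in 4 mice and lower in 2. Anxa4 (chromosome 6, 86736840 to 86793584, minus strand) and Anxa5 (chromosome 3, 36448923 to 36475894, minus strand) had log2 fold changes of 0.78 (0.890) and 0.76 (0.482), which rested on a single library: without the ILC1 library of obese mouse 26 they were -0.34 and -0.07.

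**Figure D3:**
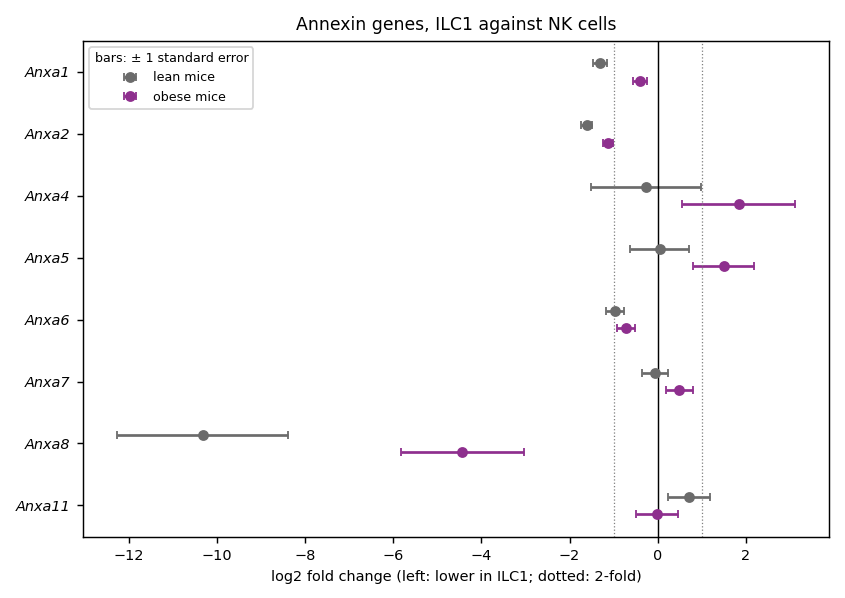
Log2 fold change of ILC1 against NK cells (x axis, left of 0 lower in ILC1) of the 8 tested annexin genes (y axis) in lean and in obese mice, with bars of 1 standard error and dotted lines at a fold of 2. Anxa1, Anxa2, Anxa6 and Anxa8 lie left of 0 in both diets, with Anxa2 at -1.61 in lean and -1.13 in obese mice.

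The same comparison was made within each diet, on libraries that the mean of both diets also uses. In lean mice 3 of the 8 tested annexins were called, all lower in ILC1, where 2.30% of all tested genes were called in either direction. Anxa2 was 3.04-fold lower (log2 fold change -1.61, standard error 0.124, edgeR's quasi-likelihood test, adjusted p = 0.000145) and Anxa1 2.49-fold lower (-1.31, 0.164, adjusted p = 0.00199). Anxa8 was called as well (adjusted p = 0.0269 by the same test), and Anxa6 had a log2 fold change of -0.97 (0.205, adjusted p = 0.0331) and missed the fold of 2. All 4 genes had every lean ILC1 library below every lean NK library, as 11.4% of all tested genes did. The median of the tested annexins was -0.62, also with Anxa8 at its bound, and that of all tested genes 0.06. With the mouse as a block, 2 were called, Anxa1 (adjusted p = 0.0278) and Anxa2 (0.0157), and Anxa8 lost the call (0.306). Anxa8 also lost it when 1 lean NK, obese NK or lean ILC1 library, whichever it was, was left out (adjusted p 0.0636 to 0.110).

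In obese mice 1 of the 8 tested annexins was called, where 0.921% of all tested genes were called in either direction. Anxa2 in ILC1 was at 0.457 of its level in NK cells (log2 fold change -1.13, standard error 0.122, edgeR's quasi-likelihood test, adjusted p = 0.00223), a call that was lost with the mouse as a block (0.0731) and when only the obese libraries were fitted (0.117). Every obese ILC1 library was below every obese NK library for Anxa1, Anxa2, Anxa6 and Anxa8, as for 13.7% of all tested genes. Anxa1 had a log2 fold change of -0.41 (0.162, adjusted p = 0.264) and Anxa6 of -0.72 (0.205, 0.135). Anxa8 was 19.6-fold lower by the ratio of means (adjusted p = 0.194), and without the ILC1 library of obese mouse 26 it was called (log2 fold change -6.96, adjusted p = 0.0480). The median of the tested annexins was -0.21 and that of all tested genes 0.02, or -0.42 and -0.17 without that library.

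Genes of T cells moved with this comparison as well. The sum of 9 T cell markers (Cd3d, Cd3e, Cd3g, Cd4, Cd5, Cd6, Cd8a, Cd8b1 and Cd28) was 993 to 2159 normalized counts in NK libraries, 14903 to 17847 in lean ILC1 and 4821 to 15772 in obese ILC1, with Cd8a and Cd8b1 at 0 in all lean libraries. Most of the sum in lean ILC1 was Cd3g, at 12468 to 13673 against 120 to 229 in lean NK cells, while Cd28 overlapped between them (897 to 1085 against 702 to 1506). Some of these genes are also transcribed in innate lymphoid cells. Their part in the annexin results was not tested.

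Diet was compared within NK cells, the main question of the study. No annexin differed by the test. In obese against lean NK cells, 0 of the 8 tested annexins were called by edgeR's quasi-likelihood test, where 0% of all tested genes were, and DESeq2 called 0 annexins as well. Of the annexins 0 had an unadjusted p under 0.05. Across all tested genes 31 did, and DESeq2 called 8. The paper reports genes higher in obese NK cells at these thresholds with SARTools, Cd200r1 among them. Here Cd200r1 had 35, 14 and 11 normalized counts in lean and 85, 164 and 107 in obese NK cells and was not called by edgeR. A diet difference in an annexin may thus have been missed.

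The log2 fold changes of obese against lean NK cells ran from -0.43 for Anxa5 (standard error 0.679) to 0.59 for Anxa11 (0.475), with a median of -0.17 against 0.09 over all tested genes. These standard errors come from the model of all 12 libraries, so the spread among ILC1 libraries enters them. For Anxa5 the SD (n = 3) was 345 normalized counts in lean NK, 103 in obese NK, 127 in lean ILC1 and 3608 in obese ILC1. Anxa11 had 132, 159 and 182 normalized counts in lean and 214, 201 and 280 in obese NK cells, and the diets did not overlap. Anxa5 had 1167, 1174 and 1768 in lean and 876, 1075 and 1021 in obese NK cells, also without overlap. The diets did not overlap for Anxa2 either, which was lower in obese NK cells (log2 fold change -0.14, standard error 0.121). Without the NK library of lean mouse 27, the highest of the lean group for both genes, Anxa2 was at -0.03 and Anxa5 at -0.21. Of the 8 tested annexins, 3 had diets without overlap, where 16.2% of all tested genes had. Anxa3, which did not pass the filter on low counts, had 0 reads in the 3 lean and 5, 5 and 4 reads in the obese NK libraries.

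Diet was also compared within ILC1. Anxa1 and Anxa2 had higher values in every obese than in every lean ILC1 library, but no annexin was called. The sum of 9 Kupffer cell markers was likewise higher in every obese (1950 to 47298) than in every lean ILC1 library (178 to 449). So were the hepatocyte and neutrophil sums, while the endothelial, B cell and stellate cell sums overlapped. Single markers did not all go with these sums. In obese mouse 25 the Kupffer cell sum was mostly Adgre1 (638), Cd68 (914) and Clec4f (307). There C1qa, C1qc, Cd5l, Cd163 and Csf1r were at 0. In obese mouse 27 all Kupffer cell markers but Cd163 were above every lean ILC1 library. The part of other liver cells in the annexin values was not tested. By edgeR's quasi-likelihood test 0 of the 8 tested annexins were called, where 0% of all tested genes were, and 3 annexins had an unadjusted p under 0.05. Across all tested genes 277 had an unadjusted p under 0.05. DESeq2 called 77 genes, of which 0 were annexins. Of the 8 tested annexins, 2 had diets without overlap, where 15.2% of all tested genes had.

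In obese ILC1 the mean of Anxa1 was 4413 ± 518 normalized counts (SD, n = 3), and in lean ILC1 it was 2351 ± 112 (SD, n = 3), a fold of 1.83. The log2 fold change was 0.87 (standard error 0.163, unadjusted p = 0.000232, adjusted p = 0.208 by edgeR's quasi-likelihood test), and it stayed between 0.82 and 0.94 when each library was left out in turn. The adjusted p depended on the tool: it was 0.000163 with DESeq2 and 0.868 when edgeR was fitted to the ILC1 libraries alone, the lowest and highest of the alternatives. The fold was under 2 in each of them. In the 3 obese mice Anxa1 in ILC1 was 0.771, 0.867 and 0.704 of the level in NK cells of the same mouse. In the 3 lean mice this ratio was 0.354, 0.372 and 0.5. The share of all tested genes whose ratio separates the diets was not computed.

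For Anxa2 the means were 8473 ± 120 normalized counts in obese ILC1 and 6548 ± 396 in lean ILC1 (SD, n = 3 each), a fold of 1.27. The log2 fold change was 0.34 (standard error 0.121, adjusted p = 0.308 by edgeR's quasi-likelihood test and 0.0430 by DESeq2). Anxa8 had an unadjusted p of 0.0130 in edgeR's quasi-likelihood test (adjusted p = 0.289), but this rested on the 9 reads in obese mouse 26 and the 2 reads in obese mouse 27, against 0 reads in lean ILC1, and its fitted log2 fold change of 5.51 is no measure of size. The median of the tested annexins was 0.61, also with Anxa8 at its bound against the floor, and that of all tested genes 0.02. Without the ILC1 library of obese mouse 26 these medians were 0.29 and -0.13.

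**Figure D4:**
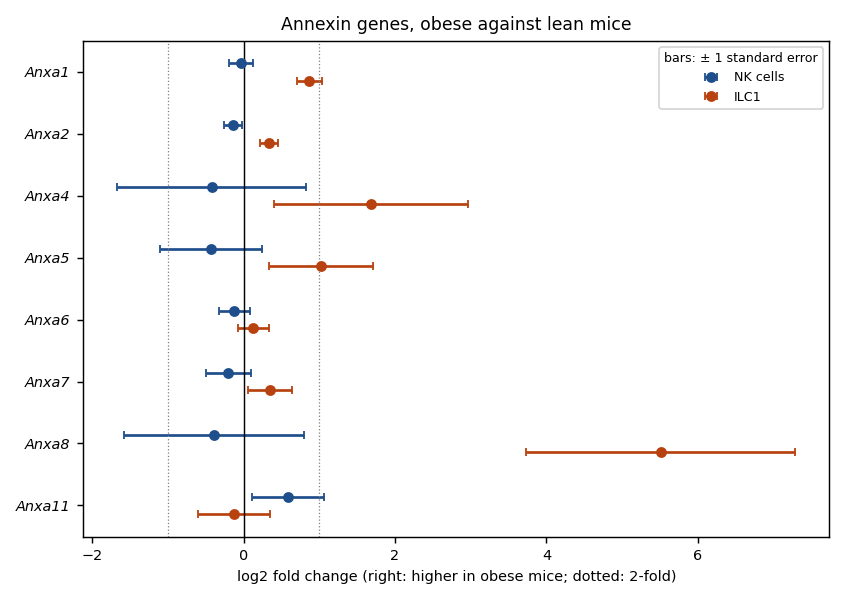
Log2 fold change of obese against lean mice (x axis, right of 0 higher in obese mice) of the 8 tested annexin genes (y axis) in NK cells and in ILC1, with bars of 1 standard error and dotted lines at a fold of 2. The standard errors come from the model of all 12 libraries. Anxa1 lies at 0.87 in ILC1, and the wide values of Anxa4 and Anxa5 in ILC1, 1.68 and 1.02, rest on 1 library.

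Whether the diet difference itself differed between the cell types was tested as an interaction. By edgeR's quasi-likelihood test 0 annexins were called, where 0% of all tested genes were, with 3 annexins and 155 genes at an unadjusted p under 0.05. DESeq2 called 21 genes and 0 annexins. The values of these 3 annexins were a log2 difference of 0.90 for Anxa1 (standard error 0.229, unadjusted p = 0.00234, adjusted p = 0.647, or 0.0468 with DESeq2), 0.48 for Anxa2 (0.171, adjusted p = 0.789) and a fitted 5.90 for Anxa8 (adjusted p = 0.789), all from edgeR's quasi-likelihood test. The same difference is that between the ILC1 against NK comparisons of obese and lean mice, so that the call of Anxa1 in lean and not in obese mice was not shown to be a difference between the diets.

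Anxa3, Anxa4 and Anxa5 had their highest values in the ILC1 library of obese mouse 26. Anxa3 (chromosome 5, 96793339 to 96845966, plus strand), an annexin of neutrophil granules, had 1, 1130 and 0 normalized counts in obese ILC1 and at most 4 in every other library. Anxa4, known mainly from epithelial cells, had 1, 1742 and 272 in obese ILC1, against 191, 208 and 194 in lean ILC1. Anxa5 had 481, 7112 and 1332 in obese ILC1, against 1537, 1323 and 1312 in lean ILC1. All 3 values of mouse 26 were above every lean ILC1 library. Of the values of mice 25 and 27, 1 was, that of Anxa4 in mouse 27.

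For Anxa4 and Anxa5 the log2 fold changes of obese against lean ILC1 were 1.68 (standard error 1.28, adjusted p = 0.729, edgeR's quasi-likelihood test) and 1.02 (0.684, adjusted p = 0.656). Without the library of obese mouse 26 they were -0.52 and -0.61. The difference between the diets in these genes thus changed direction with that library. The negative values rested in turn on obese mouse 25, with 1 normalized count of Anxa4 and 481 of Anxa5, both below every lean ILC1 library. In obese mouse 27 Anxa4 (272) was above every lean ILC1 library and Anxa5 (1332) within their range.

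The markers of other liver cells were highest in the same library. In the order of obese mice 25, 26 and 27, the sum of 9 hepatocyte markers was 1240, 316230 and 287 normalized counts, that of 9 Kupffer cell markers 1950, 47298 and 2077, that of 6 endothelial markers 223, 23543 and 104, and that of 7 B cell markers 454, 20808 and 175. The 5 neutrophil markers summed to 4, 8486 and 26 and the 5 stellate cell markers to 24, 561 and 17. In lean ILC1 the corresponding ranges were 189 to 246, 178 to 449, 60 to 137, 149 to 323, 0 (all 5 neutrophil markers at 0) and 6 to 45. In NK libraries of both diets they were 42 to 832, 167 to 1159, 0 to 76, 102 to 439, 0 to 39 and 2 to 52. In obese mice 25 and 27 the hepatocyte, Kupffer cell and neutrophil sums were above every lean ILC1 library as well. Their endothelial, B cell and stellate cell sums overlapped with lean ILC1. Their neutrophil sums were Chil3 (4 and 25) and 1 count of Cebpe in mouse 27, with Camp, Csf3r and Cxcr2 at 0. Of the hepatocyte markers, Alb, Ambp, Apoa1, Apoa2 and Apoc3 were above every lean ILC1 library in both mice. Apob was so in mouse 27 alone, and Ahsg, Apoh and Cps1 in neither. The part of other liver cells in the values of Anxa3, Anxa4 and Anxa5 was not tested. Anxa1 and Anxa2 had 4812 and 8386 normalized counts in the library of mouse 26, against 4599 and 8422 in mouse 25. The part of other cells in these values was not tested either.

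**Figure D5:**
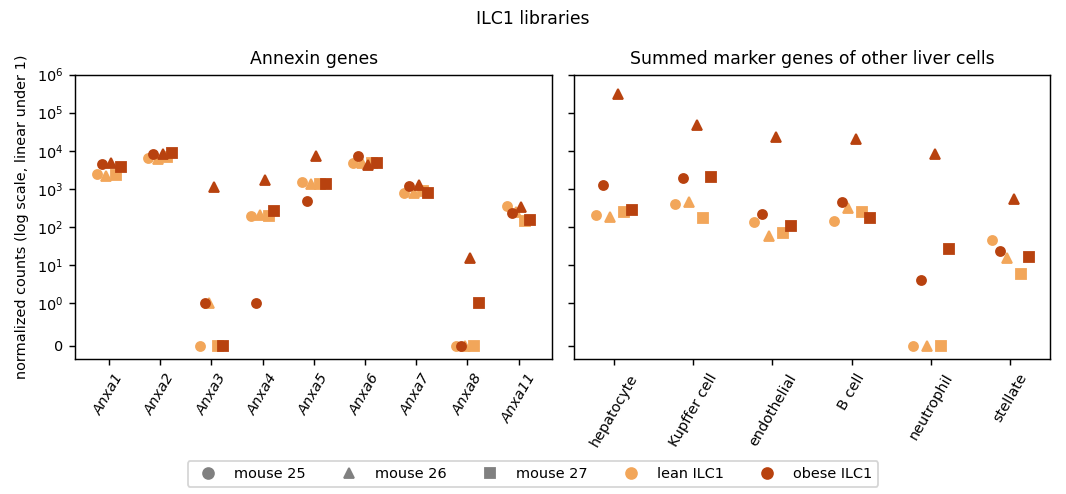
Normalized counts (y axis, logarithmic above 1 and linear below) of the 9 annexin genes (left) and of summed marker genes of other liver cells (right) in the 6 ILC1 libraries, with colour for the diet and shape for the mouse number. The library of obese mouse 26 is the highest for all 6 marker sums and for Anxa1, Anxa3, Anxa4, Anxa5, Anxa7 and Anxa8, and it is far from the other ILC1 libraries for Anxa3, Anxa4 and Anxa5.

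Other annexin genes of the table were low or absent. Anxa9 had 32, 59 and 102 normalized counts in lean NK, 51, 72 and 27 in obese NK, 42, 1 and 0 in lean ILC1 and 1, 19 and 0 in obese ILC1, and it was not called between ILC1 and NK cells (adjusted p = 0.350, edgeR's quasi-likelihood test). No read of Anxa10 or Anxa13 was counted in the 12 libraries.

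Lists of genes with neighbouring functions were read beside the annexins. Of 26 other genes of calcium-dependent membrane binding and membrane repair (copines, calpains, ESCRT-III subunits of the CHMP family, Ahnak and others), 25 were in the table and 19 were tested. In the mean of both diets 1 was lower in ILC1 and 0 were higher, with a median log2 fold change of -0.26 against 0.04 over all tested genes. The gene that fell was Ahnak, which encodes a giant scaffold protein that binds the complex of Anxa2 and S100A10. Its means were 8016 ± 660 normalized counts in lean NK, 6916 ± 371 in obese NK, 4308 ± 182 in lean ILC1 and 3208 ± 1467 in obese ILC1 (SD, n = 3 each; log2 fold change -1.02, standard error 0.188, adjusted p = 0.00889, edgeR's quasi-likelihood test). The cell types did not overlap in Ahnak, whose highest ILC1 library had 4871 and whose lowest NK library had 6619.

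Among the rest of that list, the copine Cpne2 had the largest absolute value, 4.55 (standard error 1.34, adjusted p = 0.0766), from at most 4 reads in NK and 0 to 67 reads in ILC1 libraries. It was followed by Cpne7 at 1.29 (adjusted p = 0.395), the calpain Capn1 at -1.13 (0.687) and Cpne3 at -0.92 (0.300), none of which was called. Of 10 calcium-binding genes, such as the calmodulins, calreticulin and calnexin, 9 were tested and 0 were called, with a median of -0.05. Calm2 at -0.68 (adjusted p = 0.00486, edgeR's quasi-likelihood test) and Calr at 0.80 (0.0285) passed the adjusted p but not the fold threshold. Neither list held a called gene within lean mice, within obese mice or between the diets.

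The genes whose log2 CPM was most like that of Anxa2 over the 12 libraries were 2010012O05Rik (Pearson r = 0.972), the mast cell protease gene Cma1 (0.966) and Anxa8 (0.958). Those most like Anxa8 were Angpt1, which encodes angiopoietin-1 (0.964), Atp1b3, a subunit of the sodium pump (0.964), and Anxa2. These values describe the 12 libraries, which fall into NK cells and ILC1, and each of the named genes was called lower in ILC1.

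The annexin genes are spread over the genome, with Anxa7, Anxa8 and Anxa11 on chromosome 14. The promoters of the 3 genes called lower in lean ILC1 are shown. Each is the 250 bases before the transcription start in RefSeq (GRCm38.p6), on the gene's own strand. They lie at chr19:20390672-20390921 (minus strand, Anxa1), chr9:69453433-69453682 (plus strand, Anxa2) and chr14:34085729-34085978 (plus strand, Anxa8). The GENCODE positions given above differ from these starts for the first 2 genes. The whole window of Anxa1 lies within its GENCODE gene, which ends at 20390944. The window of Anxa2 lies within its GENCODE gene from 69453620 on. Capitals mark matches to the motifs described after the sequences.
Anxa1: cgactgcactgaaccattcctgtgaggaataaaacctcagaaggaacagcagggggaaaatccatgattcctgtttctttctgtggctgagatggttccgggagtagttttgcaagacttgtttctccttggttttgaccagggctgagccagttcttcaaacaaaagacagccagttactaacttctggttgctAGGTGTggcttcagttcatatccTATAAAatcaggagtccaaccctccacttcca
Anxa2: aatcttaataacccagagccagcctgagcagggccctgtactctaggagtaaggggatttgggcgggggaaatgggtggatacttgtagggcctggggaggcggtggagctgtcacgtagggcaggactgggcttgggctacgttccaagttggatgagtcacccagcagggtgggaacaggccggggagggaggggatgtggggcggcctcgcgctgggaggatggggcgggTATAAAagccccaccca
Anxa8: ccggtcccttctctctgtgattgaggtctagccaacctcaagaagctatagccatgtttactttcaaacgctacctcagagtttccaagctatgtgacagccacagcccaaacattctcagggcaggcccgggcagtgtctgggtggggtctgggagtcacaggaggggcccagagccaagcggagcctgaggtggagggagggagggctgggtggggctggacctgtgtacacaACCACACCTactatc

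The motifs were AGGTGT, the core bound by T-box factors such as T-bet and Eomes, and TGTGGT, the core bound by RUNX factors, both searched on both strands, and TATAAA on the gene's strand alone. They were chosen after these sequences were seen. Anxa1 held AGGTGT from -55 to -50 and TATAAA from -32 to -27, counted from the RefSeq start, and Anxa2 held TATAAA from -17 to -12. These matches lie within the GENCODE genes. Anxa8 held AGGTGT from -12 to -7 and TGTGGT from -15 to -10 on the opposite strand, which overlap and are printed together in capitals. Of 32841 promoters of the same length, 11.8% held AGGTGT, 14% TGTGGT, 7.59% TATAAA and 2.13% both of the first 2. Promoters were matched for 7 of the 9 annexins, and not for Anxa3 and Anxa6. In the other 4 matched genes the only match was AGGTGT before the second start of Anxa4. A match describes letters in the window and not a bound site.

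Reads from overlapping genes are a limit on some of these values, since the strand setting of the counting is not given. In the GENCODE annotation Anxa1 overlaps 1500015L24Rik and Anxa8 overlaps A630023A22Rik on the opposite strand, and both of these had 0 counts in the 12 libraries. Anxa2, Anxa4 and Anxa11 also overlap noncoding genes (Gm16144, Gm44036 and Anxa11os), whose reads cannot be told apart from theirs.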

How the data were processed

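Total RNA from sorted cells was made into libraries with the NEBNext low input kit and sequenced on an Illumina NextSeq. The submitters' processing notes name bcl2fastq 2.19, Trimmomatic 0.36.5, STAR 2.5.2b, featureCounts 1.6.0.2 and build mm10, and the paper states SARTools for differential expression. The annotation and the strand setting of the counting are not given in the sources used here. The authors deposited 1 table with raw read counts per gene and library, and a normalized score (normalized counts in the text), which is the count divided by a factor for each library and rounded.

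The 5545 genes with complete rows, up to Cyp26b1 in the alphabet, were analysed, and 1 incomplete row was left out. Libraries held 1666637 to 2826766 counts over these genes. The tests used edgeR 4.0.16 in R 4.3.3: TMM factors, the filterByExpr filter, which left 2606 genes, and the quasi-likelihood test (glmQLFit, glmQLFTest) on 1 model of the 4 groups, with Benjamini-Hochberg adjustment. A standard error was computed as log2 fold change over the square root of F. A call needed an adjusted p under 0.05 and a fold over 2, as the paper filters. The fits were tested on simulated data with large known changes and no library that stood apart. Smaller folds and libraries that stood apart were thus not covered. Folds against groups at 0 used a floor of 3 counts per library, which covers counting error only. Gene positions and exon lengths were taken by symbol from GENCODE M21 (GRCm38).

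NK cells and ILC1 of a diet with the same mouse number came from the same mouse, per the labels, so the numbers pair these samples. Deviations of such pairs from their group means correlated at -0.0763 to 0.141 over the tested genes. NK cells and ILC1 of different mice of the same diet correlated at -0.154 to 0.194, so the pairing rests on the labels and is not seen in the counts. No libraries held identical counts. Alternatives were DESeq2 1.42.0, its size factors in edgeR, a fit of just the libraries compared, leaving out each library, the mouse or replicate number as a block (replicate block), no fold threshold, and a filter that was absent or stricter (10 counts or more in all libraries). Fits without 3 libraries that stood apart and with the authors' factors were added after seeing the data. The named genes were all annexins of the table, and from the 2 lists of related genes the called genes and up to 4 others with the largest change. Calcium-binding genes that passed only the adjusted p were named as well. For each annexin called, the 3 genes with the highest correlation were named. The members, gene lists and markers were chosen with earlier results of these data known.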

Additional observations from a re-analysis of the deposited data

Results flagged for a closer look

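For Anxa2, every obese NK library was below every lean NK library, and every obese ILC1 library was above every lean ILC1 library. Of all tested genes, 16.2% had diets without overlap in NK cells and 15.2% in ILC1, in either direction. The share with opposite directions in the cell types was not computed. The log2 fold changes of obese against lean were -0.14 in NK cells, or -0.03 without the NK library of lean mouse 27, and 0.34 in ILC1, and neither passed the test (adjusted p = 1 and 0.308, edgeR's quasi-likelihood test). The difference between the diet effects, ILC1 minus NK cells, was 0.48 on the log2 scale (standard error 0.171). This difference had an unadjusted p of 0.0179 and did not pass adjustment over all tested genes (adjusted p = 0.789, edgeR's quasi-likelihood test). Without the NK library of lean mouse 27 it was 0.37, the lowest value when each library was left out in turn. Groups of 3 libraries were not tested for single libraries far from the others.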

How the results depend on the processing

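The number of annexins called between ILC1 and NK cells in the mean of both diets, 2, was 1 when at least 10 counts were required in every library (which removes Anxa8 from the test), 1 with the replicate block and 4 without a fold threshold. It was 2 with each library left out in turn. In lean mice it was 3, and 2 to 3 with each library left out. In obese mice it was 1, and it was 2 with DESeq2, 0 with the compared libraries alone, 0 with the replicate block, 2 without lean NK 27 and obese ILC1 25 and 26 together, and 1 to 2 with each library left out. Between the diets, and for the interaction, no alternative called an annexin. Anxa4 between ILC1 and NK cells reversed to -0.02 with the replicate block, and with each library left out it ran from -0.34 to 1.07, as Anxa5 did from -0.07 to 1.02. Between obese and lean ILC1, Anxa4 ran from -0.52 to 2.26 and Anxa5 from -0.61 to 1.52, and Anxa5 was -0.05 without the 3 libraries. The negative values with 1 library left out were those without obese ILC1 26. Anxa1 in the mean of both diets was called without the 3 libraries (-1.03, adjusted p = 1.97e-05, edgeR's quasi-likelihood test). The cause of these changes was not tested beyond the libraries and filters named.

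Over all tested genes, the 113 called between ILC1 and NK cells became 222 with DESeq2, 62 with at least 10 counts, 46 with the replicate block, 245 without the 3 libraries and 63 to 161 with each library left out. In lean mice the 60 became 151 with DESeq2, 21 with the block, 219 without the 3 libraries and 29 to 102 with each left out, and in obese mice the 24 became 154, 0, 154 and 5 to 66, with 61 at 10 counts or more and 0 with the compared libraries alone. Between the diets 0 genes became 8 in NK cells and 77 in ILC1 with DESeq2, and 5 and 28 without the 3 libraries. For the interaction 0 became 21 with DESeq2 and 18 without the 3 libraries. Other size factors moved the median of all genes by at most 0.07.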
